A study of Mus musculus with 2 samples.

Results

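The 9 genes *Mrc1*, *Cd163*, *Folr2*, *Stab1*, *Msr1*, *Marco*, *Lyve1*, *Clec10a* and *Mgl2* encode scavenger and lectin receptors by which macrophages take up ligands. They were picked by symbol from the 31053 genes of the count tables, and each symbol named 1 gene. Their raw counts of unique molecular identifiers (UMIs, 1 per captured RNA molecule) were read by cell class, by macrophage state and by library, in cells that passed a minimum of 500 genes and a limit of 6% mitochondrial UMIs. The libraries hold live cells, sorted as 7AAD-negative, from mouse back-skin wounds at day 5, cut out with a 10 mm punch. Both are labelled as C57BL/6 mice 7 to 9 weeks old of the genotype *Mrc1-DTR*, in which the *Mrc1* promoter drives the diphtheria toxin receptor, so that the toxin kills cells in which that promoter is active. One library is labelled PBS and the other diphtheria toxin (DTX). The methods describe the control mice instead as wild-type mice that also received the toxin, and mice were pooled within a group, so the libraries are named here by their labels, PBS and DTX. The study's cell numbers for the groups are the reverse of those in the labelled libraries, although the cell type shares it describes run in the labelled direction, and every direction below rests on the labels.

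*Mrc1* encodes the mannose receptor CD206, a C-type lectin that carries mannose-rich glycoproteins and collagen fragments into the cell. *Clec10a* (CD301a) and *Mgl2* (CD301b) encode paired galactose-type lectins, *Msr1* and *Marco* class A scavenger receptors for modified lipoproteins and bacterial surfaces, *Stab1* stabilin-1, *Cd163* the receptor for haptoglobin-haemoglobin complexes, *Folr2* folate receptor beta and *Lyve1* a hyaluronan receptor. In skin, several of these genes are used as markers of resident, perivascular or alternatively activated macrophages. Interleukin-4 and interleukin-13 acting through STAT6 raise *Mrc1*, *Clec10a* and *Mgl2* in mouse macrophages, and glucocorticoids and interleukin-10 raise *Cd163*.

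In GENCODE vM21 (GRCm38), which holds the 9 identifiers of the tables, *Mgl2* lies on chromosome 11 from 70130329 to 70137550 and *Clec10a* from 70156197 to 70170834, both on the plus strand, with 18646 bases and 0 annotated genes between them. *Mrc1* spans chromosome 2 from 14229392 to 14332057 on the plus strand, *Folr2* chromosome 7 from 101839988 to 101857194 on the minus strand, and *Msr1* chromosome 8 from 39581685 to 39642673 on the minus strand. The others lie on chromosomes 6 (*Cd163*), 14 (*Stab1*), 1 (*Marco*) and 7 (*Lyve1*). Because *Clec10a* and *Mgl2* are near copies of each other, the last 500 bases of the longest coding transcript of each were compared. Of the 451 windows of 50 bases, 92 (20.4%) of *Clec10a* were identical to a stretch of an *Mgl2* transcript, and 0 of *Mgl2* to one of *Clec10a*. A read that lies wholly within such an identical stretch cannot be given to 1 of the genes. Read alignments were not examined, so how far this touches the level of either gene was not tested.

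RefSeq (GRCm38.p6) promoters were at hand for 6 of the 9 genes, and not for *Clec10a*, *Msr1* and *Lyve1*. Shown are the 250 bases before the RefSeq start of *Mrc1*, whose promoter defines the cells that the toxin reaches, and of *Folr2* and *Mgl2*, which were lower together in the DTX library. The GENCODE starts of these genes, given above, lie within the windows shown, and distances below are counted from the RefSeq starts. The windows lie at chr2:14229164-14229413 (plus strand), chr7:101857191-101857440 (minus strand, 1 of 2 *Folr2* entries) and chr11:70130107-70130356 (plus strand), and capitals mark GGAAGT, the core of sites of PU.1 and other ETS factors, or its reverse complement.
Mrc1: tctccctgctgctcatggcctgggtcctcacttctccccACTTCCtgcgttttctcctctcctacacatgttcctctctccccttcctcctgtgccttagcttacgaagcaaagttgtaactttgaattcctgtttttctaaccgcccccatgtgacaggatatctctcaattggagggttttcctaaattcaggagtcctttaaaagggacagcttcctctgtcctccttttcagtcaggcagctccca
Folr2: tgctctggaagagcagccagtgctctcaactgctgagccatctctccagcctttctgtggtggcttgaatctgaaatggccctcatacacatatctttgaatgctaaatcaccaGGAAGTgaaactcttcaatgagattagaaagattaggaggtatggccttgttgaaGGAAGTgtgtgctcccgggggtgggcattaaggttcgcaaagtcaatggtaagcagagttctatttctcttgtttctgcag
Mgl2: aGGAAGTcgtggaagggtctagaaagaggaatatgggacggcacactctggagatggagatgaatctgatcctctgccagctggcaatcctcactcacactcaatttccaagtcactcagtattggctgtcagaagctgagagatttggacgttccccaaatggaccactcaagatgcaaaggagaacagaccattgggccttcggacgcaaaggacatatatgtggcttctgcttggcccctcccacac
The motif stands 211 bases before the start of *Mrc1*, 136 and 81 bases before that of *Folr2* and 249 bases before that of *Mgl2*, read from its left end, and is in 0 of the 4 other promoter entries (*Cd163*, *Stab1*, *Marco* and the first of *Folr2*), while 19.7% of 32851 RefSeq promoters of this length hold it on either strand. A motif of the STAT6 type, TTC followed after any 4 bases by GAA (a palindrome, so the same on both strands), was found in 0 of the 7 promoter entries of these genes and in 5.85% of all promoters. A match is a description of the letters and not a bound site.

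The tables held 12058 cells and 105511870 UMIs in the PBS library and 11031 cells and 81858751 UMIs in the DTX library. After the filter and the removal of likely doublets, 7944 PBS cells with a median of 9579.5 UMIs and 6613 DTX cells with a median of 7286 UMIs were kept. The libraries shared 37 cell barcodes, 13 of them among kept cells. Cells were clustered without the 9 genes and named from markers. Macrophage-like cells, with 8 of 8 listed macrophage markers raised, numbered 1828 in the PBS and 4531 in the DTX library, which is 23.0% and 68.5% of kept cells. Levels are UMIs per 1000000 UMIs of the same cells (CPM), with exact Poisson 95% intervals in parentheses. With 1 library per condition no test between conditions can be made, and intervals cover counting error alone.

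The name macrophage receptor fitted *Folr2*, *Msr1* and *Mrc1* well, *Stab1* and *Cd163* in part, *Clec10a* and *Mgl2* in part in the PBS library, and *Lyve1* and *Marco* poorly. In the DTX library *Mgl2* was 32.6 CPM in macrophage-like cells against 52.4 CPM over all kept cells, and *Clec10a* 48.4 against 52.2 CPM. Macrophage-like cells held 91.2% of the PBS and 95.3% of the DTX UMIs of *Folr2*, 88.9% and 96.96% of those of *Msr1*, and 84.9% and 92.3% of those of *Mrc1*, while they held 11.3% and 57.6% of all UMIs. For *Mgl2* they held 43.3% and 35.8%, and dendritic-like cells held 51.8% and 61.1% with 4.04% and 7.42% of all UMIs. *Clec10a* stood between, at 63.8% and 53.3% in macrophage-like cells and 28.7% and 42.7% in dendritic-like cells. *Cd163* had 72.1% of 104 PBS UMIs and 81.5% of 178 DTX UMIs in macrophage-like cells.

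**Figure D1:**
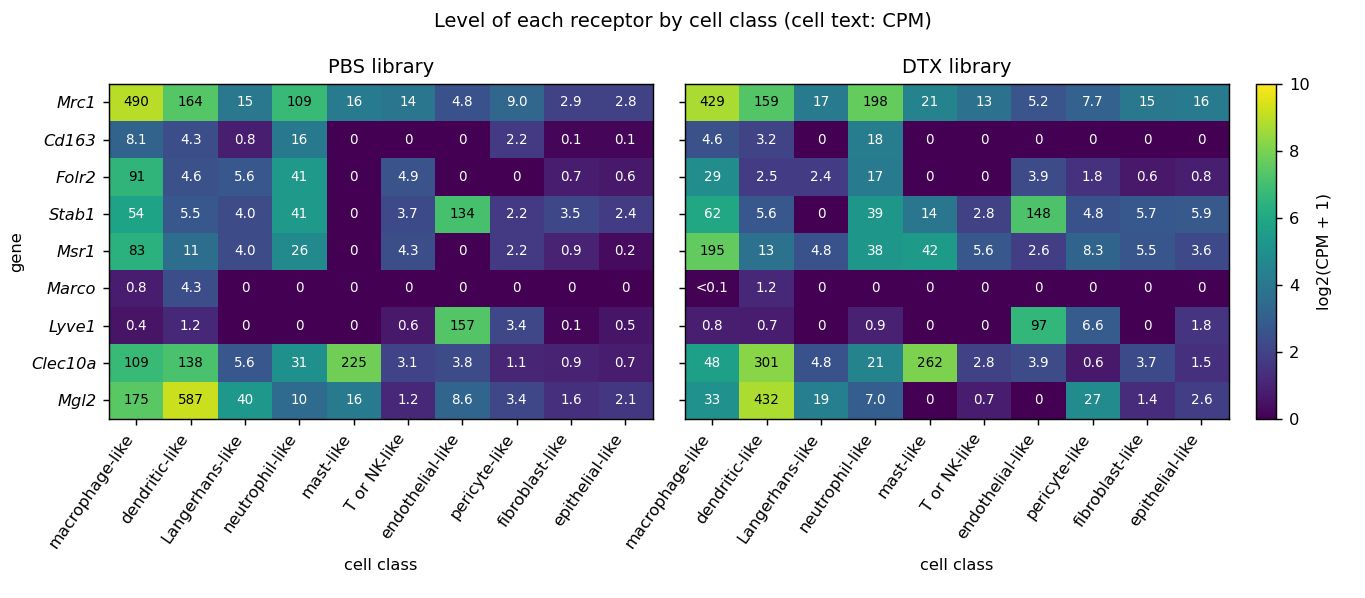
Level of each receptor (rows) in the cell classes (columns) of the PBS and DTX libraries, coloured by log2(CPM + 1) with the CPM written in each cell. *Mrc1*, *Folr2* and *Msr1* stand highest in macrophage-like cells, *Mgl2* in dendritic-like cells, and *Lyve1* in endothelial-like cells; 18 myocyte-like cells are left out.

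*Lyve1*, which marks lymphatic endothelium and some perivascular macrophages, was close to absent from macrophage-like cells, with 4 UMIs in the PBS and 25 in the DTX library. Endothelial-like cells held 165 of its 195 PBS UMIs and 75 of its 122 DTX UMIs. These came from few cells, 13 of 73 in the PBS and 5 of 56 in the DTX library, where 1 cell held 57 of the 75 UMIs. Of those 13 and 5 cells, 8 and 3 carried UMIs of at least 3 of 6 lymphatic endothelial markers (*Prox1*, *Flt4*, *Ccl21a*, *Mmrn1*, *Reln* and *Pdpn*), against 0 of 60 and 0 of 51 endothelial-like cells without *Lyve1*. The cells with *Lyve1* were also deeper, with medians of 16337 and 17040 UMIs against 12046.5 and 12383. *Stab1*, which blood and lymphatic endothelium share with macrophages, reached 134 CPM (112 to 158) in PBS and 148 CPM (122 to 177) in DTX endothelial-like cells.

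*Marco* was read 21 times in kept PBS cells and 6 times in kept DTX cells. Dendritic-like cells held 14 and 5 of these UMIs, from 6 of 333 and 3 of 346 cells, and macrophage-like cells held 7 and 1. At this depth neither *Marco* nor *Lyve1* could be followed across conditions in macrophage-like cells.

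*Clec10a* was also high in a small class in which the other receptors were scarce. In mast-like cells, named from 7 of 7 mast cell markers, it had 42 UMIs in 6 of 34 PBS cells and 37 UMIs in 9 of 18 DTX cells, or 225 CPM (162 to 304) and 262 CPM (184 to 361). *Mgl2* had 3 and 0 UMIs in the same cells and *Mrc1* 3 and 3. The cells with *Clec10a* carried the connective tissue mast cell proteases: *Cma1* was present in 5 of the 6 and in 9 of the 9, against 9 of 28 and 3 of 9 mast-like cells without *Clec10a*. *Mcpt8*, a protease of basophils, was present in 1 of 6 and 1 of 9 cells with *Clec10a* and in 20 of 28 and 5 of 9 without. These proteases were chosen after the values were seen, and median UMIs per cell were 5115 with and 3560 without *Clec10a* in the PBS library, and 5583 and 5567 in the DTX library. When the 9 receptors were allowed among the variable genes, the mast-like cluster held 128 cells instead of 52. The levels in mast-like cells were not read again in that setting.

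Neutrophil-like cells showed *Mrc1* at 109 CPM in the PBS and 198 CPM in the DTX library, from 6 of 129 and 47 of 460 cells. The highest of these DTX cells alone held 31 of the 225 UMIs, beside 28 UMIs of the other receptors. In pericyte-like cells of the DTX library, 45 of 46 *Mgl2* UMIs came from 1 cell. Fibroblast-like cells, which should lack these receptors, held *Mrc1* at 2.94 CPM (2.40 to 3.57) in the PBS and 15.2 CPM (12.9 to 17.9) in the DTX library. Of the 5 receptors with at least 50 UMIs over both libraries in these cells, *Mrc1* (log2 ratio 2.04), *Msr1* (1.73) and *Clec10a* (1.28) were past 2-fold higher in the DTX library, where macrophage-like cells held 57.6% of all UMIs against 11.3%, and 2.64% of 11815 genes were past 2-fold higher; the part of free RNA was not tested. For *Clec10a* 1 DTX fibroblast-like cell held 21 of 36 UMIs, and without it the log2 ratio was 0.39 (-0.14 to 0.92).

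In macrophage-like cells the receptors did not move as 1 group. *Mgl2*, *Folr2* and *Clec10a* were lower and *Msr1* higher in the DTX library by more than 2-fold, while *Mrc1*, the gene that gives the targeted cells their name, and *Stab1* stayed within 2-fold. Of the 9 receptors, 7 had at least 50 UMIs over both libraries; 3 of them were past 2-fold lower, against 3.32% of 10250 genes with as many UMIs, and 1 was past 2-fold higher, against 1.53% (4.85% in either direction). Log2 ratios are DTX to PBS after adding 1 CPM, with exact conditional intervals. The median of the 9 log2 ratios was -0.71 beside 0.06 over the 10250 genes.

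*Mrc1* had 4511 UMIs in PBS and 13566 UMIs in DTX macrophage-like cells, which is 489.7 CPM (476 to 504) and 429 CPM (422 to 437). The log2 ratio was -0.19 (-0.24 to -0.14). After each cell was thinned to 2000 UMIs, 52.3% (49.8 to 54.8%) of 1602 PBS and 43.0% (41.6 to 44.5%) of 4391 DTX cells held a UMI of *Mrc1*, with 226 and 140 shallower cells left out. The unthinned shares were 72.1% and 65.5%. The thinned share in fibroblast-like cells was 0.536% in the PBS and 2.46% in the DTX library, at unthinned medians of 11176 and 13960 UMIs per cell against 4827 and 6773 in macrophage-like cells.

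*Mgl2* showed the widest difference among the 9. It had 1612 UMIs in PBS and 1030 UMIs in DTX macrophage-like cells, 175 CPM (167 to 184) and 32.6 CPM (30.6 to 34.7), a log2 ratio of -2.39 (-2.50 to -2.28). The thinned share of cells with *Mgl2* was 14.7% (13.03 to 16.6%) in the PBS and 2.69% (2.23 to 3.21%) in the DTX library. The paired lectin *Clec10a* was 109 CPM (103 to 116) and 48.4 CPM (46.0 to 50.8), a log2 ratio of -1.16 (-1.27 to -1.04), and this was -0.92 and within 2-fold when macrophage-like cells were taken by a gate of marker genes. The thinned shares of *Clec10a* were 16.1% and 7.70%.

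*Folr2* was 91.4 CPM (85.3 to 97.8) in PBS and 29.0 CPM (27.2 to 31.0) in DTX macrophage-like cells, a log2 ratio of -1.62 (-1.76 to -1.49), with thinned shares of 13.4% and 4.67%. *Cd163* was 8.14 CPM (6.40 to 10.2) and 4.59 CPM (3.87 to 5.40), from 75 and 145 UMIs. Its log2 ratio of -0.71 (-1.07 to -0.35) was within 2-fold, and it was past 2-fold, at -1.04 to -1.13, under 3 of 11 alternatives.

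*Msr1* ran the other way. It was 82.9 CPM (77.2 to 89.0) in PBS and 195 CPM (190.2 to 200.02) in DTX macrophage-like cells, a log2 ratio of 1.22 (1.12 to 1.33), and the thinned share was 14.5% (12.9 to 16.4%) in the PBS and 31.0% (29.7 to 32.4%) in the DTX library. *Stab1* was 54.3 CPM (49.6 to 59.3) and 62.1 CPM (59.4 to 64.9), a log2 ratio of 0.19 (0.05 to 0.33). The log2 ratio of *Lyve1* was 0.32 (-0.30 to 0.75) and that of *Marco* -0.77 (-0.90 to -0.32), both below 50 UMIs.

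**Figure D2:**
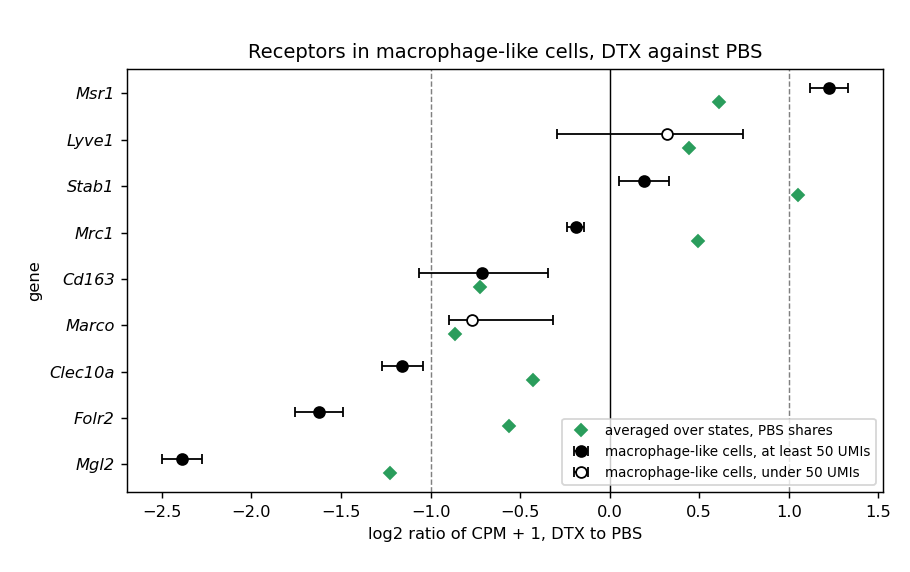
Log2 ratio of CPM + 1, DTX to PBS, of each receptor in macrophage-like cells (circles, bars are 95% counting intervals, open below 50 UMIs) and after averaging levels over 6 states with the PBS shares of cells (diamonds). *Mgl2*, *Folr2* and *Clec10a* lie below -1 and *Msr1* above 1 as circles, and the diamond of *Mrc1* lies at 0.49 where its circle lies at -0.19.

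RNA of other cells also differed between the libraries. In macrophage-like cells the 8 fibroblast markers summed to 730.2 CPM in the PBS and 146 CPM in the DTX library, with 8 of 8 lower, and the 8 epithelial markers to 414 and 112 CPM, also with 8 of 8 lower. The 10 dendritic markers summed to 87.9 and 50.3 CPM with 9 of 10 lower, and the 8 neutrophil markers to 325 and 515 CPM with 7 of 8 higher. None of these 34 markers was at 0 in either library. In macrophage-like cells without a UMI of *Col1a1*, *Col1a2* and *Col3a1*, which were 244 PBS and 2340 DTX cells, the log2 ratios were -2.43 for *Mgl2*, -1.87 for *Folr2*, -1.45 for *Clec10a*, 1.32 for *Msr1* and -0.29 for *Mrc1*. The parts of the epithelial, dendritic and neutrophil RNA, and of fibroblast RNA beyond these collagen genes, were not tested in these ratios. The depth of the cells without a collagen UMI was not read.

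The macrophage-like cells fell into 7 clusters, named from raised markers. The C1q-like state (*C1qa*, *C1qb*, *C1qc*, *Pltp*) held 63.4% of PBS and 6.58% of DTX macrophage-like cells. The monocyte-like state (*Ly6c2*, *Vcan*, *Plac8*) held 1.97% and 28.8%, and the Arg1-like state (*Arg1*, *Cd9*, *Spp1*) 0.766% and 25.9%. Cluster 3, led by *Ccl7*, *Cbr2* and *Ccl2* with too few raised markers for a name, held 3.83% and 20.1%. MHC class II-like, stress-like and interferon-like cells made up 15.9% and 13.04%, 11.1% and 3.58%, and 3.06% and 1.99%. A state held almost wholly by 1 library cannot be told apart from that library.

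Within the DTX library, where each state had at least 90 cells, *Mrc1* ran from 845 CPM (801 to 891) in the C1q-like state through 709.6 CPM (687 to 732) in cluster 3 to 341 CPM (329 to 353) in the monocyte-like and 286 CPM (274 to 298) in the Arg1-like state. The intervals of these 4 did not overlap, and the stress-like, interferon-like and MHC class II-like states lay between cluster 3 and the monocyte-like state, each overlapping the next of these in order. In the PBS library *Mrc1* was 552 CPM (532 to 573) in the C1q-like state and 475 CPM (404 to 555) in cluster 3, which overlapped. The 36 PBS monocyte-like cells stood lower, at 64.3 CPM (34.3 to 110.0) from 13 UMIs. The 14 PBS Arg1-like cells stood higher, at 802 CPM from 50 UMIs, of which 1 cell held 13, unlike the order in the DTX library.

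*Msr1* was ordered otherwise. In the DTX library it was highest in the Arg1-like state at 261 CPM (249.8 to 273) and the monocyte-like state at 246 CPM (236 to 256), whose intervals overlapped, and low in the MHC class II-like state at 102 CPM (93.6 to 111) and the C1q-like state at 120.2 CPM (104 to 138), which overlapped. *Msr1* was present in each of the 7 states of both libraries, from 60.1 to 261 CPM.

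*Folr2* followed cluster 3, the C1q-like and the stress-like states. In the DTX library it was 90.9 CPM (83.1 to 99.3), 83.3 CPM (69.7 to 98.7) and 64.3 CPM (49.96 to 81.6) there, which overlapped, against 5.77 CPM in the monocyte-like and 2.29 CPM in the MHC class II-like state. In the PBS library cluster 3 stood above the rest at 253 CPM (201 to 313), and the monocyte-like cells held 0 *Folr2* UMIs, for which a limit of 3 counts is 14.8 CPM and the upper end of the exact interval 18.3 CPM. *Stab1* in the DTX library was 149.6 CPM (131 to 169.8) in the C1q-like and 120.2 CPM (100.2 to 143) in the stress-like state, and 18.6 CPM (15.04 to 22.6) in the MHC class II-like state. *Cd163* stood at 19.6 CPM (16.1 to 23.7) in cluster 3 of the DTX library, from 108 UMIs in 35 of 910 cells, of which 1 cell held 24. In cluster 3 of the PBS library it was 3.01 CPM, from 1 UMI in 70 cells. The log2 ratio there, 2.37 (0.19 to 4.27), rests on that 1 PBS UMI and runs against the one over all macrophage-like cells.

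*Mgl2* and *Clec10a* were distributed otherwise. In the PBS library *Mgl2* was 548 CPM (515 to 582) in the MHC class II-like state, against 82.4 CPM (74.7 to 90.6) in the C1q-like state, and the thinned shares of cells were 43.8% and 9.05%. *Clec10a* was spread more evenly, at 129 CPM (113 to 146) and 122 CPM (113 to 132). In the DTX library both were low in the monocyte-like and Arg1-like states, *Mgl2* at 3.30 and 6.44 CPM and *Clec10a* at 26.8 and 20.9 CPM.

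**Figure D3:**
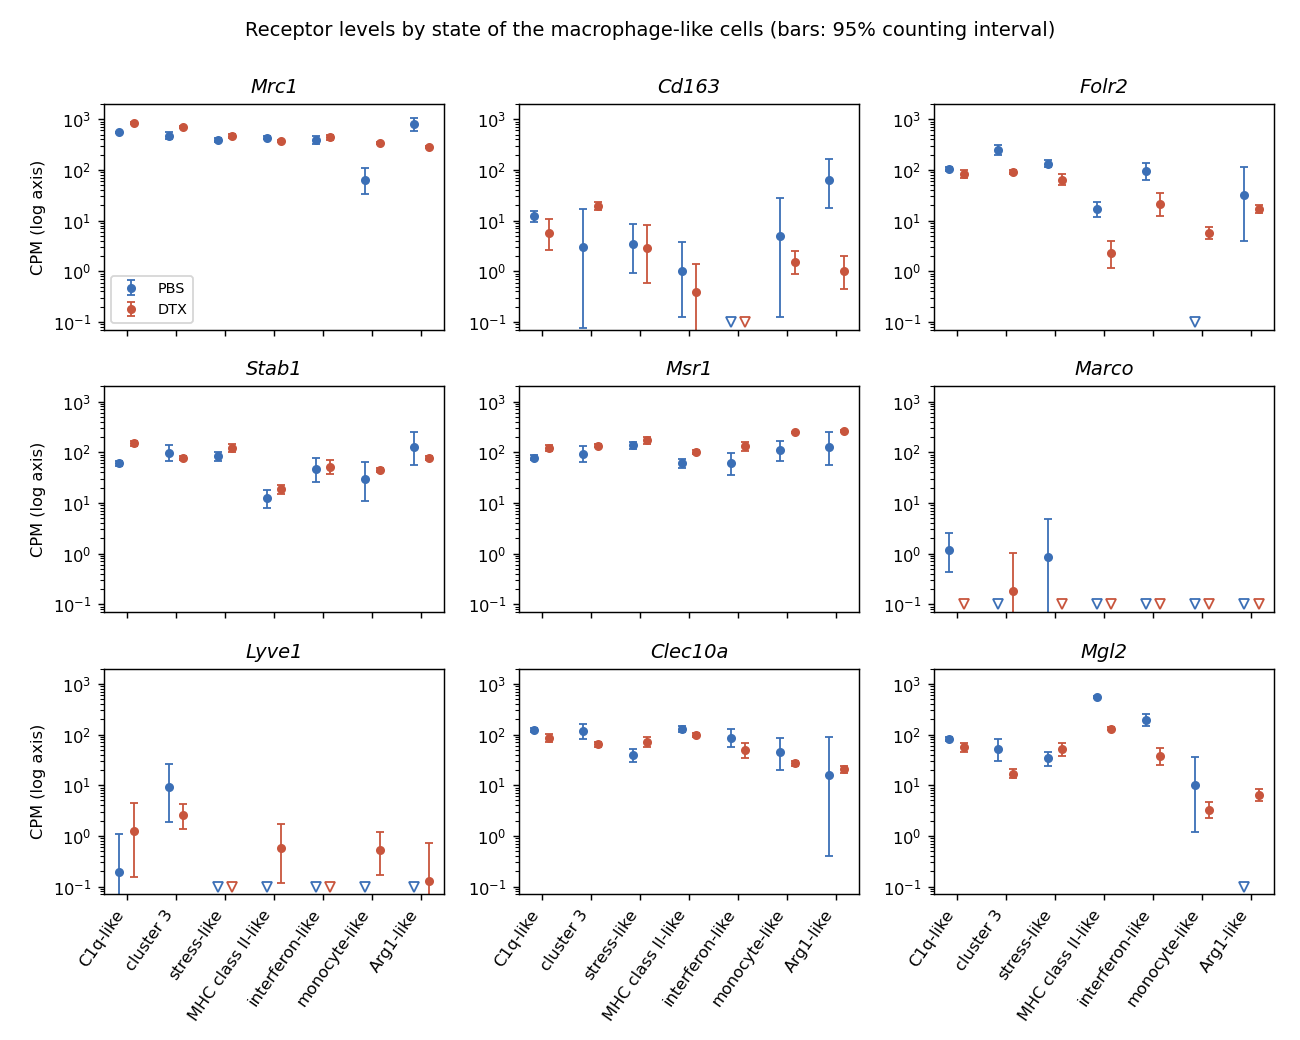
Level of each receptor (CPM, log axis) in the 7 states of the macrophage-like cells of the PBS (blue) and DTX (red) library, with 95% counting intervals; open triangles at the bottom mark 0 UMIs. *Msr1* is higher in the DTX library in each state, and *Mgl2* in MHC class II-like cells stands at 548 CPM in PBS and 131 CPM in DTX.

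Part of the differences over all macrophage-like cells went with the mix of states. When levels were averaged over the 6 states with at least 20 cells in each library, weighted by the PBS shares, the log2 ratio of *Mrc1* turned from -0.19 to 0.49 and that of *Stab1* moved from 0.19 to 1.05. Those of *Folr2* and *Clec10a* shrank from -1.62 to -0.56 and from -1.16 to -0.43. *Mgl2* stayed past 2-fold at -1.23, and *Msr1* was 0.61. With the DTX shares as weights, which the 6 states cover to 74.1%, *Folr2* was -1.20, *Mgl2* -1.76, *Mrc1* 0.69 and *Cd163* 0.56. These weights rest most on the monocyte-like state and cluster 3, with 1305 and 910 DTX cells. The PBS levels there come from 36 and 70 cells, and that of *Mrc1* in the monocyte-like state from 13 UMIs. At a finer clustering, with 9 states compared, *Mgl2* was -0.58 and *Stab1* 0.60, and *Cd163* turned from -0.72 to 0.50. In another setting the state markers and the genes of the study's macrophage subset lists, 979 besides the receptors, were left out of the clustering. There *Mgl2* was -0.88, so the standardised values depend on how the states are drawn.

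Within single states the differences were uneven. In the MHC class II-like state *Mgl2* was 548 CPM in PBS and 131 CPM (121 to 141) in DTX cells, a log2 ratio of -2.06 (-2.20 to -1.92), where 1.97% of 7041 genes were past 2-fold lower, while *Clec10a* was -0.41 (-0.63 to -0.18) and *Mrc1* -0.22 (-0.33 to -0.10). *Cd209a*, a lectin of dendritic cells, was 132 and 50.7 CPM in the same cells, *Flt3* 6.16 and 15.5 CPM and *Zbtb46* 5.13 and 4.59 CPM. The 10 dendritic markers summed to 283 CPM in PBS and 161 CPM in DTX cells of this state, and the part of a different admixture of dendritic cells in the *Mgl2* value was not tested. At the finer clustering the name MHC class II-like went to clusters of 740 PBS and 116 DTX, 115 and 600, and 169 and 74 cells. The part of such a split in the *Mgl2* value was not tested either. Without the MHC class II-like state the log2 ratio of *Mgl2* in macrophage-like cells was -2.42, but the mix of the remaining states also differed between the libraries. In the remaining states with at least 50 cells in each library it was -0.54 (C1q-like, -0.88 to -0.21), -1.54 (cluster 3, -2.28 to -0.72), -2.38 (interferon-like, -3.07 to -1.72) and 0.58 (stress-like, -0.02 to 1.19). The cluster 3 value rests on 17 UMIs of 9 PBS cells. The interferon-like value rests on 59 UMIs of 14 PBS cells and 28 UMIs of 10 DTX cells. In the C1q-like state 1 DTX cell held 23 of 90 *Mgl2* UMIs.

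In the C1q-like state, with 1159 PBS and 298 DTX cells, *Stab1* was higher in the DTX library at 149.6 against 61.2 CPM, a log2 ratio of 1.28 (1.03 to 1.52), where 0.952% of 7035 genes were past 2-fold higher. *Mrc1* there was 845 against 552 CPM, a log2 ratio of 0.61 (0.52 to 0.71), and *Mgl2*, *Clec10a* and *Folr2* were -0.54, -0.52 and -0.32. *Msr1* was higher in the DTX library in each of the 6 states compared, with log2 ratios from 0.33 to 1.17. *Folr2* in cluster 3 was 253 CPM in 70 PBS cells and 90.9 CPM in 910 DTX cells, a log2 ratio of -1.46 (-1.80 to -1.11), where 2.93% of 6597 genes were past 2-fold lower. In the stress-like state *Clec10a* was 39.7 CPM (29.2 to 52.8) in PBS and 71.9 CPM (56.7 to 90.0) in DTX cells. The log2 ratio of 0.84 (0.31 to 1.38) was within 2-fold. Of the 76 DTX UMIs, 1 cell held 13, beside 31 UMIs of the other receptors. Whether the 2 intervals stay apart without that cell was not read. In the monocyte-like state, *Mrc1* was 64.3 against 341 CPM, a log2 ratio of 2.39 (1.62 to 3.28) that rests on 13 UMIs of 36 PBS cells, and 15.2% of 7464 genes were past 2-fold higher in that state.

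In dendritic-like cells the paired lectins went apart. *Clec10a* was 138 CPM (126 to 151) in 333 PBS cells and 301 CPM (284 to 318) in 346 DTX cells, a log2 ratio of 1.12 (0.96 to 1.27), where 1.26% of 7481 genes were past 2-fold higher. *Mgl2* was 587 CPM (561 to 614) and 432 CPM (412 to 452), a log2 ratio of -0.44 (-0.54 to -0.35). The same held in each of the clusters of this class. In cluster 6, led by *Ccr7*, *Ccl22* and *Ccl17*, *Clec10a* was 184 and 364 CPM and *Mgl2* 799 and 552 CPM. Cluster 8 had 6 of 10 dendritic markers raised (*Flt3*, *Cd209a*, *Ccr7*, *Tbc1d4*, *Xcr1* and *Clec9a*), with 0 of the markers among its 10 leading genes. There *Clec10a* was 65.2 and 133 CPM and *Mgl2* 252 and 113 CPM. *Mrc1* in dendritic-like cells was 164 CPM (150.0 to 178) and 159 CPM (147 to 172), a log2 ratio of -0.04 (-0.20 to 0.13). The border between dendritic-like and macrophage-like cells moved with the clustering. With the 9 receptors allowed among the variable genes, the cluster led by *Ccr7*, *Ccl22* and *Ccl17* held 718 cells instead of 502. Macrophage-like cells then numbered 6141 instead of 6359. The ratios in dendritic-like cells were not read again under such alternatives.

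**Figure D4:**
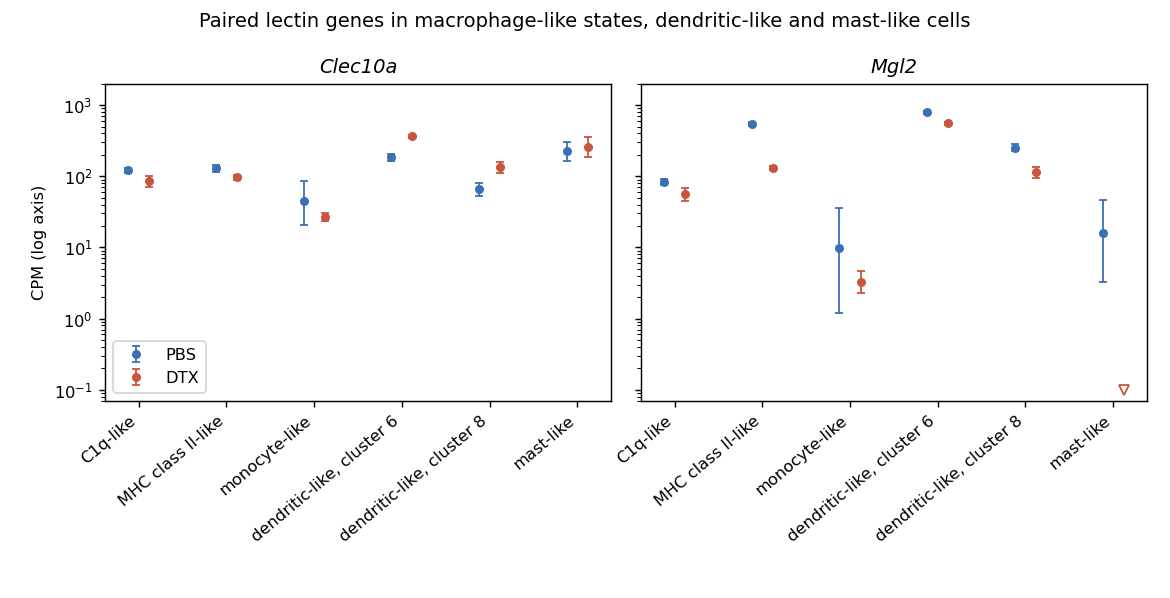
Level of *Clec10a* and *Mgl2* (CPM, log axis) in 3 macrophage-like states, the 2 dendritic-like clusters and mast-like cells of the PBS (blue) and DTX (red) library, with 95% counting intervals; the open triangle marks 0 UMIs. *Clec10a* is higher in DTX than in PBS cells of both dendritic-like clusters, and *Mgl2* is lower in both.

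Co-detection was read in the thinned cells for the 36 pairs, where a share among cells with a gene is set beside that among cells without it. *Folr2* went with *Stab1*: of cells with *Folr2*, 20.6% (15.4 to 26.6%) in the PBS and 31.2% (24.9 to 38.0%) in the DTX library held *Stab1*, against 8.43% and 10.4% of cells without. *Mgl2* stood apart from *Stab1*, with 3.39% and 3.39% against 11.2% and 11.6%, and from *Folr2* in the PBS library, with 6.36% against 14.6%. *Mgl2* and *Clec10a* were found together in 30.5% (22.4 to 39.7%) against 7.07% in the DTX library and 23.3% (18.1 to 29.2%) against 14.9% in the PBS library. Cells with *Mgl2* in the DTX library held *Msr1* in 16.1% against 31.4%. Of the 26 thinned cells with *Cd163* in each library, 23 and 20 also held *Mrc1*. These are 88.5% (69.8 to 97.6%) in the PBS and 76.9% (56.4 to 91.0%) in the DTX library, against 51.7% and 42.8% of cells without *Cd163*. Cells in which at least 3 of the 9 receptors were read made up 11.6% (10.1 to 13.3%) of PBS and 5.83% (5.16 to 6.56%) of DTX cells.

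**Figure D5:**
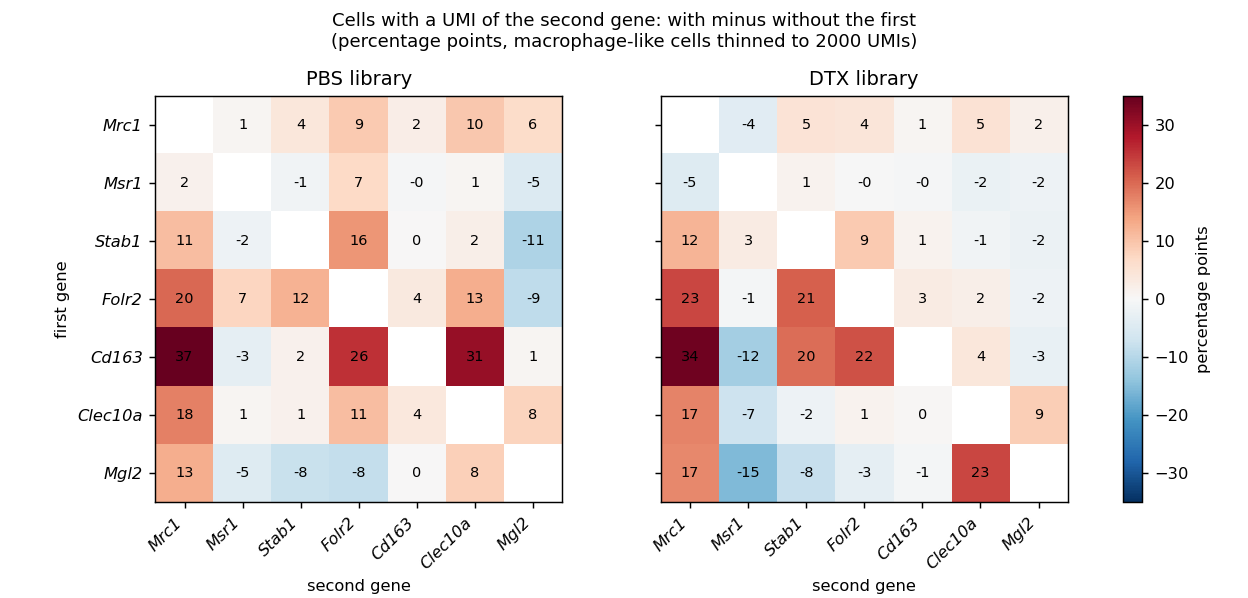
Share of macrophage-like cells with a UMI of the second gene (columns) among cells with the first gene (rows) minus the share among cells without it, in percentage points, after thinning to 2000 UMIs, for the PBS and DTX libraries; *Marco* and *Lyve1* are left out for few UMIs. *Folr2* and *Stab1* are found together in both libraries, and *Mgl2* with *Stab1* less often than without.

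Across 27 units (the other classes and the macrophage states of each library with at least 50 cells), the genes whose log2(CPM + 1) ran most like a receptor's were taken from 12141 genes. The units share 2 libraries, so the correlations are descriptions. *Mrc1* was most like *Clec4a2*, *Aif1* and *Cybb* (r from 0.98 to 0.99) and *Msr1* most like *Ccl9*, *Lyz2* and *Fcgr1* (0.96 to 0.97). *Folr2* ran with *Cbr2*, *Gm13391* and *Il10* (0.89 to 0.93), *Stab1* with *Sdcbp*, *Cd38* and *P2ry6* (0.88 to 0.89) and *Lyve1* with the endothelial genes *Tmem252*, *Emcn* and *Rasgrp3* (0.89 to 0.90). *Clec10a* ran with *Sirpb1a*, *Gpr137b* and *Naaa* (0.94) and *Mgl2* with *Cd209a*, *Tnip2* and *Clec4b1* (0.86 to 0.87). For *Cd163* these were *Ankrd33b*, *Napa* and *1600010M07Rik* (0.74 to 0.77) and for *Marco*, from few UMIs, *Bcl2l14*, *Clec9a* and *Cd209e* (0.78 to 0.82). Among the receptors themselves r was 0.94 for *Mrc1* with *Msr1*, 0.81 for *Clec10a* with *Mgl2* and 0.15 for *Stab1* with *Mgl2*. These r values span other classes as well as macrophage states. In thinned macrophage-like cells of the DTX library, 28.7% of cells with *Mrc1* held *Msr1*, against 32.7% of cells without. In the PBS library these shares were 14.9% and 14.1%.

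Other scavenger, endocytic and lectin receptors split in the same macrophage-like cells. Of 48 listed, 47 were in the tables and 31 had at least 50 UMIs. Of these, 7 (22.6%) were past 2-fold lower in the DTX library and 3 (9.68%) past 2-fold higher, with a median log2 ratio of -0.34. Over the 10250 genes the shares were 3.32% and 1.53% and the median 0.06. The lower ones included *Cd209d* (-2.17), *Clec4b1* (-1.92), *Fcrls* (-1.86) and the Langerhans cell lectin *Cd207* (-1.55). The higher ones were *Cd300lf* (1.25), *Olr1* (1.22), which takes up oxidized lipoprotein, and *Clec4e* (1.20), the Mincle receptor for microbial glycolipids. *Cd209a* and *Cd207* are also dendritic and Langerhans cell markers.

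Of 18 cytokine receptors and transcription factors known to act on these genes, each with at least 50 UMIs, 2 (11.1%) were past 2-fold lower. None was past 2-fold higher, and the median was 0.13. Over the 10250 genes 3.32% were past 2-fold lower and 1.53% higher. *Spic*, a factor of iron-recycling macrophages, was 47.4 CPM in PBS and 17.9 CPM in DTX cells (log2 ratio -1.36, -1.54 to -1.18), and *Pparg*, a lipid-sensing nuclear receptor, 14.3 and 5.16 CPM (-1.32, -1.62 to -1.01). *Il4ra* at 0.13, *Il13ra1* at 0.36 and *Stat6* at 0.31 stayed within 2-fold. Of 9 genes of haptoglobin-haemoglobin handling and receptor shedding, 8 had at least 50 UMIs. Of these, 1 (12.5%) was past 2-fold higher and 0 were past 2-fold lower. The higher gene was *Hp*, encoding haptoglobin, whose complexes with haemoglobin are the ligand given above for *Cd163*. *Hp* was 228 CPM in DTX against 57.3 CPM in PBS cells (1.97, 1.85 to 2.10). *Hp* was among the markers that named the monocyte-like state.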

How the data were processed

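Live cells of each wound suspension were captured with the 10x Genomics Chromium 3′ kit. Per the labels and the file headers, the authors ran Cell Ranger 6.1.1 against mm10 (the methods give another version), and deposited whole-number UMI counts for each gene in each cell, without normalization; whether a library joins technical replicates could not be told. The receptors and gene lists were chosen with earlier results of these data known. Cells passed at 500 or more genes and 6% or less of mitochondrial UMIs; the upper limit on genes in the study's filter was used as an alternative. Scrublet in scanpy 1.11.5 (expected rate 0.08) removed 382 PBS cells (4.59%) by its threshold; in the DTX library it called 0 cells, so the top 8.00% by score, 575 cells, were taken out. Seurat 5.3.0 clustered log-normalized counts (2000 variable genes without the 9 receptors, 30 principal components, resolution 0.2 for classes and 0.5 for states). A cluster was named from markers with a level, plus 50 CPM, at least 2 times the reference and detected in 10% or more of its cells, with at least 3 such markers; the reference, the median cluster for classes and the other macrophage-like cells for states, was set after the clusters were seen. UMIs were summed per library and class; 1 CPM was added before log2 ratios, and called means past 2-fold among genes with at least 50 UMIs. Cells were thinned to 2000 UMIs for shares of cells. Intervals are exact at 95% (Poisson, binomial, conditional binomial) and cover counting error alone. edgeR 4.0.16 gave TMM factors as an alternative. The ratio, interval and thinning functions were tested on simulated data. Genes named are the 9 receptors, up to 4 past 2-fold in each direction of each list, the 3 genes most like each receptor and markers; *Il4ra*, *Il13ra1*, *Stat6*, the dendritic markers of the MHC class II-like state and the mast cell proteases were named after their values were seen. Figures used matplotlib 3.10.9.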

Additional observations from a re-analysis of the deposited data

Results flagged for a closer look

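*Clec10a* went in opposite directions in different classes, each past 2-fold. In dendritic-like cells its log2 ratio of DTX to PBS exceeded that in macrophage-like cells by 2.28 (1.12 against -1.16). In fibroblast-like cells it exceeded it by 2.44 (1.28 against -1.16), at levels of 0.942 CPM in the PBS and 3.70 CPM in the DTX library, from 33 and 36 UMIs, and 1 DTX cell held 21 of the 36, without which the log2 ratio in fibroblast-like cells was 0.39. With 1 library per condition, neither difference was tested. The ratio in dendritic-like cells was also not read under other clusterings, which move the border between these cells and macrophage-like cells.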

How the results depend on the processing

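No paired analysis was possible because each condition is 1 library. Under 11 alternatives (8 planned, and 3 chosen after seeing the data: leaving out the MHC class II-like state, cells with a collagen UMI, or shared barcodes), the log2 ratios over macrophage-like cells lay between -3.43 and -1.94 for *Mgl2*, -1.87 and -1.27 for *Folr2*, -1.85 and -0.92 for *Clec10a*, 1.18 and 1.42 for *Msr1*, and -0.30 and -0.04 for *Mrc1*. The count of receptors past 2-fold stayed between 3 and 5 of 9. The median receptor ratio of -0.71 was -0.30 with at most 2000 genes per cell and -0.29 in cells without a collagen UMI; over the 7 receptors with at least 50 UMIs, without *Marco* and *Lyve1*, it was -1.13 and -0.56. Of 497 genes past 2-fold, 323 were left with at least 200 UMIs, and 1452 passed at 1.5-fold; the share of them that was lower in the DTX library was 68.4%, 58.2% and 54.5%, and 41.4% in cells without a collagen UMI, where 297 genes were lower and 420 higher against 340 and 157. The median state-standardised ratio of -0.43 was 0.077 at resolution 1.0, which is the value of *Lyve1* with its few UMIs; over the 7 receptors it was -0.43 and 0.42, and 0.30 with the DTX shares as weights. The medians over 7 receptors, and the fibroblast-like ratio without 1 cell, were also chosen after seeing the data. The cause of these moves was not tested. Shares of cells with a UMI moved past their counting interval in 32 of 54 alternatives, most by thinning depth. Depth limits *Marco*, *Lyve1* and *Cd163*, and states with few PBS cells.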
